A study of Mus musculus with 2 samples.

Results

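The rod phototransduction cascade was followed through 9 genes: Gnat1, Gnb1 and Gngt1, which encode the alpha, beta and gamma subunits of the rod G protein transducin, Pde6a, Pde6b and Pde6g, which encode the subunits of the rod cGMP phosphodiesterase, Cnga1 and Cngb1, which encode the subunits of the rod cGMP-gated channel, and Sag, which encodes rod arrestin. They were chosen by gene symbol, 9 of the 32285 genes counted. Dissociated retinal cells of mice at postnatal day 7 (P7) were profiled by droplet single-cell RNA sequencing in 1 control library (genotype Mettl14 fl/fl or fl/wt) and 1 Mettl14-cKO library (genotype Mettl14 fl/fl;Chx10-Egfp/Cre). Mettl14 is a subunit of the complex that places N6-methyladenosine on messenger RNA, and both libraries carry its floxed allele. Cre is driven by the Chx10 transgene, which acts in retinal progenitors and is known to be mosaic, so cells that kept Mettl14 may remain in the Mettl14-cKO library. How many animals were pooled per library is not given in the labels.

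In the rod outer segment, photoactivated visual pigment turns on transducin, whose alpha subunit relieves the inhibition of the phosphodiesterase by its gamma subunit. The phosphodiesterase hydrolyses cGMP, the cGMP-gated channels close and the cell hyperpolarises, while arrestin binds the phosphorylated pigment and ends its signal. In the mouse, rods that were born around birth build up these transcripts during the first postnatal weeks, before the outer segments are complete.

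The control library held 13287 barcodes and the Mettl14-cKO library 15319, of which 11426 and 13502 had at least 1000 unique molecular identifiers (UMIs, each standing for 1 captured transcript) and were used, at medians of 3487 and 3212 UMIs. A barcode was called rod-gated when 16 rod marker genes, none of them a member of the cascade list, summed to at least 50 UMIs per 10000 and no other cell class was met. The photoreceptor precursor class was the exception, since rods had precedence over it: 2824 control and 2421 Mettl14-cKO rod-gated barcodes also met the precursor requirement. The rod gate gave 4310 control barcodes (37.7% of those used) and 3356 Mettl14-cKO barcodes (24.9%), at medians of 1981.5 and 2047 UMIs and of 195 and 192 rod marker UMIs per 10000. A class set by such a level is a range and not a type: 115 control and 184 Mettl14-cKO rod-gated barcodes lay near the limit, between 50 and 75 per 10000. A further 758 control and 1066 Mettl14-cKO barcodes reached the rod level but also met another class, and were left out as possible doublets. Another 343 and 257 reached the rod level and met the cone class, which had precedence, and were counted as cone-gated. In rod-gated barcodes the median barcode had 0 detected markers of cones, bipolar, amacrine, ganglion, horizontal, proliferating, astrocytic, microglial, vascular and pigment epithelial cells in both libraries, and 1 of 10 Müller glia markers. It had 1 of 10 neurogenic markers in control and 2 in Mettl14-cKO, and 4 and 5 of 10 photoreceptor precursor markers. At least 1 Müller glia marker UMI was present in 59.6% of control rod-gated barcodes and in 70.3% of Mettl14-cKO ones, at median levels of 2.57 and 5.81 UMIs per 10000, and their part in the results below was not tested. When all barcodes were clustered without the cascade genes, different clusters held the rod-gated barcodes of each library: clusters 0 and 4 held 2573 and 1386 of the control ones against 136 and 69, and clusters 1 and 2 held 1423 and 1374 of the Mettl14-cKO ones against 128 and 44. The libraries shared 57 barcode sequences, 12 of them rod-gated in each library.

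In rod-gated barcodes the 9 genes did not move as 1 block. Gngt1, Pde6b, Sag and Gnb1 stood at 0.430 to 0.599 of their control level in the Mettl14-cKO library, Cnga1 and Pde6a at 0.778 and 0.798, Cngb1 and Pde6g at 0.917 and 0.930, and Gnat1 alone among the 9 was higher, at 1.64 times its control level. Their levels are given in UMIs per 1000000 UMIs of the rod-gated class (CPM), with exact 95% Poisson intervals. A gene was called higher or lower where the libraries differed enough (Mettl14-cKO at least 25% above control, or at most 0.8 of it) and these intervals did not overlap: by this rule 1 of the 9 was higher, 6 were lower and 2 were neither, with a median log2 ratio (Mettl14-cKO over control) of -0.36. Over all 12273 genes with at least 30 UMIs in the class, 17% were called higher and 17.7% lower, with a median log2 ratio of -0.04. With 1 library per genotype there is no test: all intervals cover counting error only, and a difference between genotypes cannot be told apart from a difference between these preparations. Mettl14 itself stood at 33.4 CPM in control rod-gated barcodes and at 17.2 in the Mettl14-cKO ones, a ratio of 0.514 (0.430 to 0.612). A count at the 3' end need not cover the deleted exons.

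**Figure D1:**
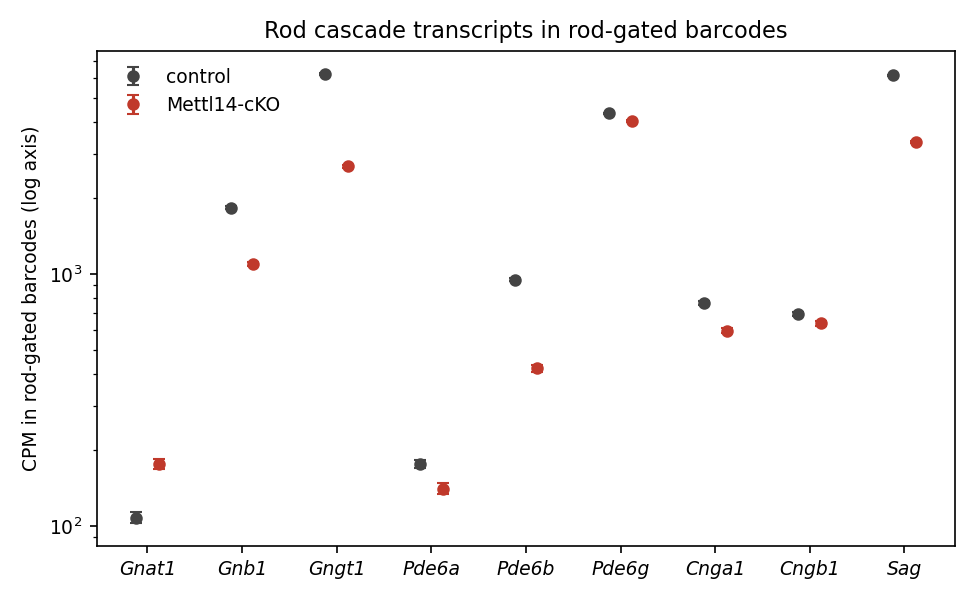
Level of each of the 9 cascade genes in rod-gated barcodes (vertical axis, UMIs per 1000000 UMIs of the class, log axis) in control and the Mettl14-cKO library; points are the level of 1 library and bars the exact 95% Poisson interval, often smaller than the point. Gnat1 is the only gene of the 9 whose Mettl14-cKO point lies above the control point, and the gap is widest for Gngt1 and Pde6b.

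RefSeq promoter sequences, from 250 bases before to 50 after the transcript start (GRCm38.p6), matched 6 of the 9 genes by symbol: Gnb1, Gngt1, Pde6b, Cnga1, Cngb1 and Sag. They were searched on both strands for TAATCC (reverse complement GGATTA), the core of the site bound by the photoreceptor homeodomain factor CRX, and for TGCTGA (reverse complement TCAGCA), a part of the site bound by the rod leucine zipper factor NRL. The motifs do not overlap each other in the matches found. TAATCC was found in 4 of the 6 windows (Gngt1, Cnga1, Sag, and 2 copies in Cngb1) and in 7.06% of 32851 promoter windows of this length, and TGCTGA in 2 of the 6 (Pde6b and Sag) and in 19.5%. The windows of the 3 genes with the lowest ratios and of Cngb1, which changed little, are shown so that they can be read side by side; capitals mark the motif matches, and a match is letters in a window, not a measured site. The Gngt1 window is chr6:3993758-3994057 (plus strand), Pde6b chr5:108388123-108388422 (plus strand), Sag chr1:87803430-87803729 (plus strand) and Cngb1 chr8:95306536-95306835 (minus strand).
Gngt1: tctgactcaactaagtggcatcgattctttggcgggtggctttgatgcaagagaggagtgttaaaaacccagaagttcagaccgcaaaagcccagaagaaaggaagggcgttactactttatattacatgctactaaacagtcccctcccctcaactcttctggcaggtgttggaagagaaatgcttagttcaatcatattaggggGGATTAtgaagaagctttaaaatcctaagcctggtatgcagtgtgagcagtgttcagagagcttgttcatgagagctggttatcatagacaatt
Pde6b: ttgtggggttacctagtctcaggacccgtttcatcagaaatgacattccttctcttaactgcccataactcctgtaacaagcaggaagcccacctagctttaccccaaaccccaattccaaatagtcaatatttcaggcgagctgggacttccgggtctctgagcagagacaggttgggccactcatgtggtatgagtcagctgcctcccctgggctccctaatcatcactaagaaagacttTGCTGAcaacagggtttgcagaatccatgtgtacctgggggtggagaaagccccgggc
Sag: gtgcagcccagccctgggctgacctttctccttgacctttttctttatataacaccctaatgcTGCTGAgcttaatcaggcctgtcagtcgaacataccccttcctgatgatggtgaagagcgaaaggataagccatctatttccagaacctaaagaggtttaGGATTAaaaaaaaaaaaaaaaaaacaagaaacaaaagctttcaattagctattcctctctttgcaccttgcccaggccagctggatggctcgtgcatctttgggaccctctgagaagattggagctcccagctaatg
Cngb1: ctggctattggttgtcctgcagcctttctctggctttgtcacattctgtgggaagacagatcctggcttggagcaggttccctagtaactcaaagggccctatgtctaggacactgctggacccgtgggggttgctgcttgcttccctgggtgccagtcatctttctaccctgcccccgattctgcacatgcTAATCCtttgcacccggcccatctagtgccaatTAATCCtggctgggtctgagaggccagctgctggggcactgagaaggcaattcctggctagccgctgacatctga
Counted from the RefSeq start, the Gngt1 match lies 44 bases before it and the Pde6b match 8. The Sag matches lie 187 (TGCTGA) and 87 (GGATTA) bases before it, and the Cngb1 copies 58 and 25. In the GENCODE annotation Gngt1 begins earlier, at 3993792, so its match lies inside that gene model. The 3 genes with the lowest ratios and Cngb1 each hold at least 1 of these letter strings.

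Transducin subunits diverged from each other. Gnat1 (chromosome 9, 107674474 to 107679712, minus strand, GRCm38), the alpha subunit that carries the signal to the phosphodiesterase, stood at 108 CPM in the control library (102 to 113; 1549 UMIs) and at 176 in Mettl14-cKO (168 to 185; 1804 UMIs). The intervals did not overlap, and the ratio was 1.64 (1.53 to 1.75). Gngt1 (chromosome 6, 3993792 to 3997436, plus strand), the rod gamma subunit, stood at 6224 CPM (6183 to 6265; 89512 UMIs) and at 2677 (2646 to 2709; 27415 UMIs), a ratio of 0.430 (0.424 to 0.436) and the lowest of the 9. Gnb1 (chromosome 4, 155491361 to 155559269, plus strand), the beta subunit that rods share with many other neurons, stood at 1835 CPM (1813 to 1857) and at 1099 (1079 to 1120), a ratio of 0.599 (0.586 to 0.612). So within 1 G protein the alpha transcript was higher, and the beta and gamma transcripts lower, in the Mettl14-cKO library. In UMIs the Gnat1 to Gngt1 ratio was 0.0173 (0.0164 to 0.0182) in control and 0.0658 (0.0627 to 0.0690) in Mettl14-cKO, the Gnat1 to Gnb1 ratio 0.0587 and 0.160, and the Gngt1 to Gnb1 ratio 3.39 and 2.44. Capture differs between genes, so such a ratio is read only between libraries and not as a number of subunits per complex.

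The phosphodiesterase subunits also diverged. Pde6a (chromosome 18, 61220315 to 61289924, plus strand) and Pde6b (chromosome 5, 108388391 to 108432397, plus strand) encode the catalytic subunits, and Pde6g (chromosome 11, 120447605 to 120453500, minus strand) the inhibitory gamma subunit. Pde6b stood at 949 CPM in control (933 to 965; 13650 UMIs) and at 422 in Mettl14-cKO (409 to 435; 4319 UMIs), a ratio of 0.444 (0.429 to 0.460). Pde6a stood at 176 CPM (169 to 183; 2528 UMIs) and at 140.3 (133 to 148; 1437 UMIs), a ratio of 0.798 (0.748 to 0.852). Pde6g stood at 4338 CPM (4304 to 4373; 62395 UMIs) and at 4034 (3995 to 4073; 41307 UMIs), a ratio of 0.930 (0.918 to 0.942): its intervals were apart, but the difference was smaller than the rule asks. Of these 3, Pde6b fell most, Pde6a sat at the edge of the rule, and Pde6g was close to level. The call on Pde6a depended on the setting: it was kept in 3 of 11 alternatives and lost in 8, at log2 ratios between -0.37 and -0.23. In UMIs, Pde6a to Pde6b was 0.185 (0.177 to 0.193) in control and 0.333 (0.313 to 0.353) in Mettl14-cKO, and Pde6g to the sum of both catalytic transcripts was 3.86 (3.79 to 3.92) and 7.18 (6.98 to 7.38).

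The channel subunits also differed, with Cnga1 called lower and Cngb1 not called. Cnga1 (chromosome 5, 72603696 to 72644275, minus strand), the alpha subunit that forms the cGMP-gated pore, stood at 765 CPM in control (751 to 780; 11004 UMIs) and at 595 in Mettl14-cKO (580.4 to 610.4; 6095 UMIs), a ratio of 0.778 (0.754 to 0.803). Its call as lower was kept in 9 of 11 alternatives and lost in 2, at log2 ratios between -0.41 and -0.27. Cngb1 (chromosome 8, 95239045 to 95306585, minus strand), the modulatory beta subunit, stood at 694 CPM (680.2 to 708; 9978 UMIs) and at 636 (621 to 652; 6512 UMIs), a ratio of 0.917 (0.888 to 0.946) that no setting called. In UMIs Cnga1 to Cngb1 was 1.10 (1.07 to 1.13) in control and 0.936 (0.904 to 0.969) in Mettl14-cKO. Sag (chromosome 1, 87803680 to 87845158, plus strand), the arrestin that ends the pigment's signal, stood at 6151 CPM (6111 to 6192; 88468 UMIs) and at 3340.4 (3305 to 3376; 34205 UMIs), a ratio of 0.543 (0.536 to 0.550). Gene models of Gnb1, Pde6a and Cnga1 overlap a processed pseudogene that the count tables do not list; it lies on the same strand only for Cnga1.

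**Figure D2:**
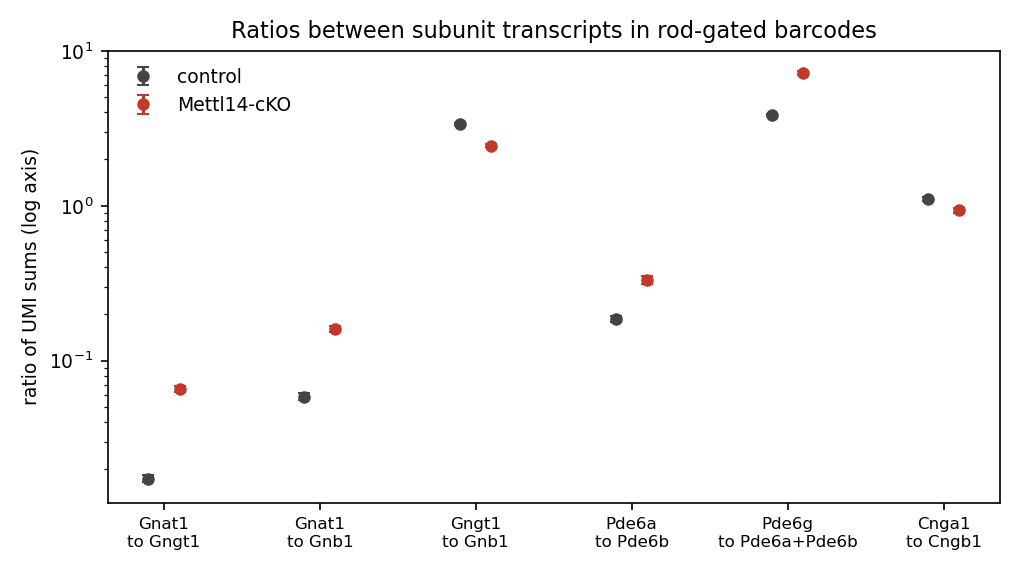
Ratio of the summed UMIs of paired subunit transcripts in rod-gated barcodes (vertical axis, log axis) in control and the Mettl14-cKO library; bars are exact 95% intervals. The Gnat1 ratios and both phosphodiesterase ratios are higher in the Mettl14-cKO library, and the Gngt1 to Gnb1 and Cnga1 to Cngb1 ratios are lower.

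The 9 genes together made up 2.12% of all UMIs of control rod-gated barcodes (305478 UMIs) and 1.31% of those of Mettl14-cKO rod-gated barcodes (134349 UMIs). After each barcode was thinned at random to 1000 UMIs, the median barcode held 20 cascade UMIs in control (10th and 90th percentile 6 and 33) and 11 in Mettl14-cKO (2 and 24). The share of rod-gated barcodes with at least 1 UMI followed the levels. For Gngt1 it was 92.8% in control and 76.4% in Mettl14-cKO at 1000 UMIs (96.2% and 86.3% at full depth), for Sag 94.0% and 81.2% (96.9% and 89.2%), and for Gnb1 77.8% and 60.6% (90.8% and 80.6%). For Pde6b it was 53.6% and 30.3% (76.6% and 52.9%), for Cnga1 45.6% and 35.4% (68.5% and 55.2%), and for Pde6a 14.5% and 12.1% (31.9% and 25.7%). For Pde6g it was 91.6% and 87.6% (95.2% and 93.6%), and for Cngb1 47.2% and 45.1% (72.7% and 69.7%). Gnat1 went the other way, with 8.33% (7.52% to 9.20%, exact Clopper-Pearson) and 12.3% (11.2% to 13.5%), or 19.7% and 24.6% at full depth. As a background, amacrine-gated barcodes, which should lack these rod transcripts, held a UMI of Gngt1 in 16.0% and 7.50% at 1000 UMIs, of Sag in 18.1% and 7.50% and of Gnat1 in 0.352% and 0.938%, at median full depths of 4047.5 and 3424 UMIs.

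Rod-gated barcodes varied in how many of the 9 genes they showed. At 1000 UMIs the median was 5 genes in both libraries, with means of 5.25 in control and 4.41 in Mettl14-cKO. Rod-gated barcodes without any cascade gene made up 0.510% of the control ones and 3.16% of the Mettl14-cKO ones, and all 9 were found in 0.603% and 0.447%. The spread within a library was wide for each gene: Gngt1 per 10000 UMIs had quartiles of 30.1 and 79.7 in control barcodes and of 8.07 and 37.0 in Mettl14-cKO barcodes, and Sag 31.3 and 78.7 against 11.4 and 45.8. The quartile ranges of Gngt1 and of Sag therefore overlapped between the libraries. The intervals of the summed levels did not, but those cover counting error and not the spread over barcodes. Pde6g had quartiles of 21.9 and 56.4 in control and 18.1 and 54.4 in Mettl14-cKO.

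**Figure D3:**
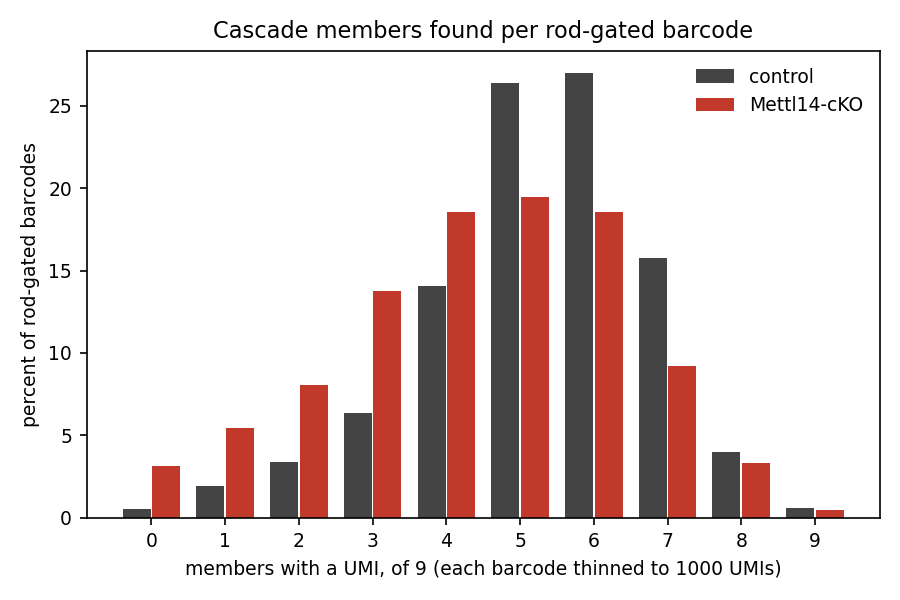
Share of rod-gated barcodes (vertical axis, percent) by how many of the 9 cascade genes had at least 1 UMI (horizontal axis), each barcode thinned to 1000 UMIs; dark bars are the control and red bars the Mettl14-cKO library. Control barcodes peak at 5 and 6 genes, and the Mettl14-cKO bars are taller from 0 to 4.

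To set the libraries side by side at like summed rod marker levels, rod-gated barcodes were split at 100 and 200 rod marker UMIs per 10000. Only the sum was matched, and single markers within it could still differ between the libraries. The lowest range held 262 control and 401 Mettl14-cKO barcodes, the middle 2094 and 1435, and the highest 1954 and 1520. Cascade levels were higher where rod markers were higher: control Gngt1 stood at 1657, 5134 and 7407 CPM over the 3 ranges, and Mettl14-cKO Gngt1 at 584, 1980.4 and 3635. Its log2 ratio was -1.51, -1.37 and -1.03 from the lowest range to the highest, that of Pde6b -1.46, -1.38 and -0.95, that of Sag -1.24, -1.03 and -0.69, and that of Gnb1 -0.77, -0.83 and -0.60. These 4 genes were thus below control in each range. The differences of Cnga1 (-0.62, -0.55 and -0.17), Cngb1 (-0.34, -0.27 and 0.06), Pde6a (-1.29, -0.39 and -0.18) and Pde6g (-0.22, -0.17 and 0.04) were nearest to 0 in the highest range. Gnat1 lay above control in the 3 ranges, at log2 ratios of 0.86 (interval -0.10 to 1.93, from 12 and 39 UMIs), 0.52 (0.31 to 0.73) and 0.87 (0.76 to 0.98). The median log2 ratio of all genes with at least 30 UMIs stayed between -0.07 and -0.05 in the 3 ranges. Differences between ranges were not tested.

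**Figure D4:**
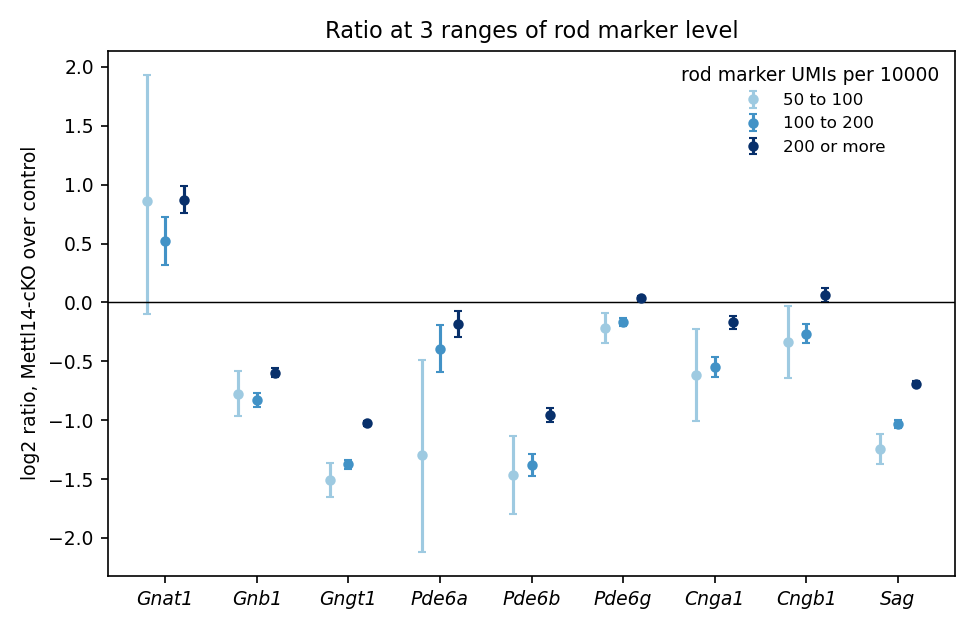
Log2 ratio of Mettl14-cKO over control (vertical axis) for each cascade gene in rod-gated barcodes of 3 ranges of summed rod marker level, from light (50 to 100 UMIs per 10000) to dark (200 or more); bars are exact 95% intervals. Gngt1, Pde6b, Sag and Gnb1 lie below 0 and Gnat1 above 0 in each range, while Pde6g and Cngb1 lie close to 0 in the highest range.

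Other genes of the rod cascade were counted as a list of 16. In rod-gated barcodes 1 was higher, 4 were lower and 11 were neither, with a median log2 ratio of -0.21. Over all genes tested 17% were higher and 17.7% lower, with a median of -0.04, so the share of the list called was near that of all genes. Aipl1, a chaperone that the phosphodiesterase needs to assemble, fell from 340.5 to 189 CPM (ratio 0.554, 0.525 to 0.584). Gucy2e, a guanylate cyclase that restores cGMP, fell from 129 to 85.4 CPM (0.661), Grk1, the kinase that phosphorylates the activated pigment, from 119 to 85.7 (0.721), and Unc119, a carrier of the lipid-modified transducin alpha subunit, from 2872 to 2087 (0.727). The 1 gene called higher was Grk4, named after its value was seen, on 40 and 54 UMIs. Components of the complex that speeds GTP hydrolysis by transducin had ratios of 0.806 (Rgs9), 0.803 (Gnb5) and 0.946 (Rgs9bp), none of them called. Nor were Pdc (0.842), which binds transducin beta and gamma, the calcium sensor Rcvrn (0.876), Pde6d (0.920), the exchanger Slc24a1 (1.11), Gucy2f (0.944) or the cyclase activators Guca1a (1.01) and Guca1b (0.988).

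Cone counterparts of the cascade genes were counted in the same barcodes. Of 8 genes 7 had enough UMIs, of which 2 were higher, 2 lower and 3 neither, with a median log2 ratio of 0.11, beside the 17% higher and 17.7% lower of all genes tested. The cone gamma subunit Gngt2 stood at 870 CPM in control and 1126 in Mettl14-cKO (1.29), while its rod counterpart Gngt1 stood at 0.430 of control. Cngb3, the cone channel beta subunit, went from 45.2 to 67.2 CPM (1.49), the cone transducin beta subunit Gnb3 from 456 to 341 (0.747), and the cone phosphodiesterase inhibitory subunit Pde6h from 34.3 to 17.9 (0.521). Cngb3 and Pde6h were also cone markers, and barcodes that met the cone class were not rod-gated, so the level of these genes here is bounded by the gate. Gngt2 was a photoreceptor precursor marker, and rods had precedence over that class, so the gate set no such bound on it.

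Outside rod-gated barcodes the cascade transcripts gauge free RNA, since RNA from 1 source keeps its genes in 1 ratio in each class. Gnb1 was set apart, because other neurons express it. As a percentage of the rod-gated level of the same library, the median of the other 8 genes was 3.86% in control and 3.98% in Mettl14-cKO in bipolar-gated barcodes, 3.31% and 2.49% in amacrine-gated, 2.79% and 3.46% in Müller glia-gated, 4.05% and 4.10% in neurogenic-gated and 1.51% and 1.37% in ganglion-gated barcodes. Cnga1 was the lowest of the 8 in these classes except in control neurogenic-gated barcodes, where Sag was lowest, at 3.26%. The make-up of the 8 genes in bipolar-gated barcodes was like that of the rods of the same library for some genes only. Gngt1 made up 35.6% of the UMIs of these 8 genes in control against 32.1% in rods, and 24.3% in Mettl14-cKO against 22.3%. Pde6g made up 22.2% against 22.4% and 33.5% against 33.6%. Cnga1 made up less than in rods, 2.60% against 3.94% in control and 3.39% against 4.95% in Mettl14-cKO. Gnat1 made up 0.470% against 0.555% in control and 2.20% against 1.47% in Mettl14-cKO. Some ratios between libraries in non-rod classes were near those of rods, as for Gngt1 in bipolar-gated (0.414) and Müller glia-gated (0.418) barcodes against 0.430 in rods. Others were not, and the part of free RNA in these ratios was not tested. In amacrine-gated barcodes most of the 8 genes had lower ratios than in rods. Pde6g stood at 0.581 of control against 0.930 in rods, Cnga1 at 0.428 against 0.778, Sag at 0.349 against 0.543 and Gngt1 at 0.349 against 0.430. Gnat1 did not, at 1.79 against 1.64. Gnb1 stood at 8.21% to 23.6% of the rod level in control and at 11.9% to 38.9% in Mettl14-cKO in these 5 classes, highest in ganglion-gated barcodes.

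In the Mettl14-cKO library Gnat1 was the highest of the 8 in bipolar-gated (5.78% of its rod level), amacrine-gated (4.34%), Müller glia-gated (5.30%), ganglion-gated (2.65%) and neurogenic-gated (8.91%) barcodes. In the control it was, among these classes, highest only in amacrine-gated barcodes, at 3.96%. Its counts there were small: 28 UMIs in control and 57 in Mettl14-cKO bipolar-gated barcodes, 8 and 39 in Müller glia-gated, 22 and 45 in amacrine-gated, 2 and 28 in neurogenic-gated and 2 and 9 in ganglion-gated barcodes. The Gnat1 ratio of Mettl14-cKO over control was 2.84 (1.78 to 4.64) in bipolar-gated and 3.82 (1.76 to 9.47) in Müller glia-gated barcodes, both called higher. Of all genes tested, 1646 of 11552 were called higher in bipolar-gated and 1655 of 11022 in Müller glia-gated barcodes. In amacrine-gated barcodes the Gnat1 ratio was 1.79 (1.05 to 3.13) and in neurogenic-gated 3.05 (0.770 to 26.5), neither of them called, and ganglion-gated barcodes had too few UMIs for a ratio. The part of free RNA in these values was not tested. Subtracting the amacrine-gated level from each library left Gnat1 higher and Gngt1, Pde6b and Sag lower in rod-gated barcodes. For Gnb1, which amacrine cells express, that level is no background. The other members stood there at 4.34% of their rod level or less, so the subtraction could move them little. In this setting 1185 of all 5996 genes left were called higher and 2853 lower. Their median log2 ratio was -0.39, beside -0.35 for the members.

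**Figure D5:**
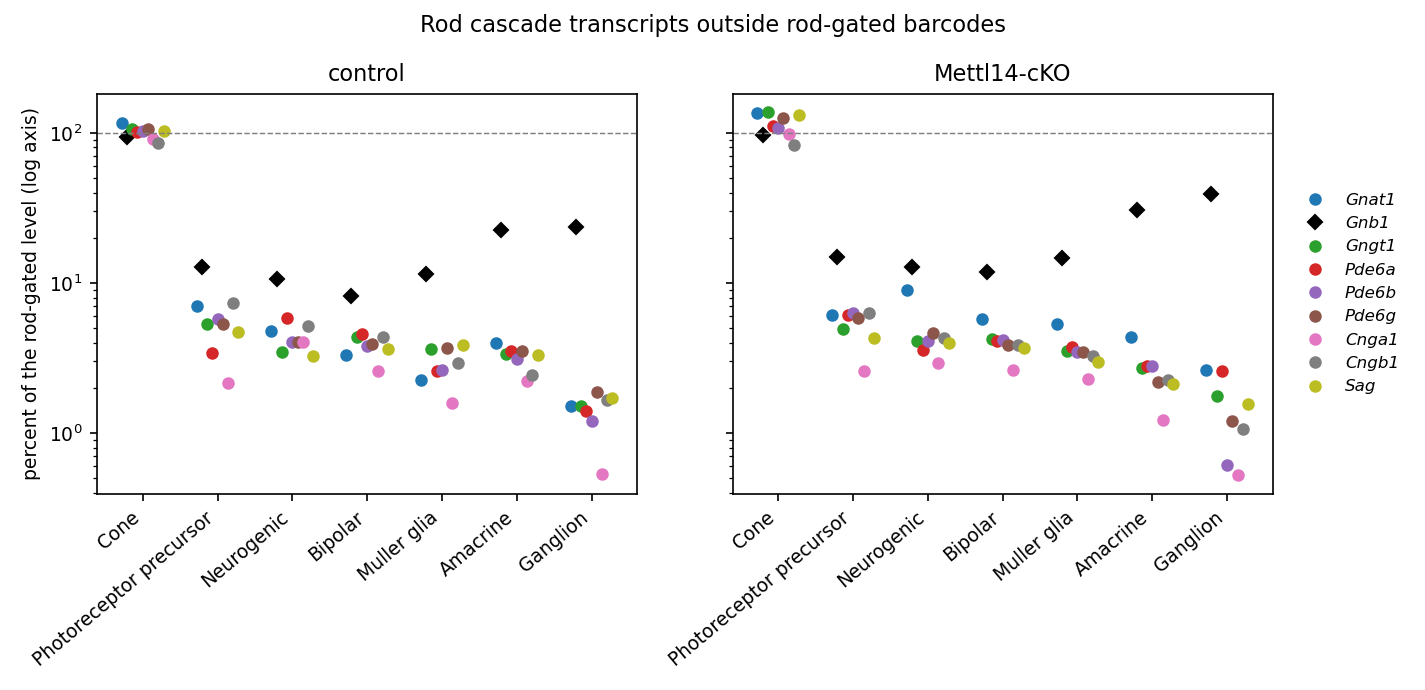
Level of each cascade gene in 7 other marker-gated classes as a percentage of its level in rod-gated barcodes of the same library (vertical axis, log axis; the dashed line is 100%), for the control and the Mettl14-cKO library. Cone-gated barcodes lie near 100%; in the other classes 8 genes lie below 10% and Gnb1 (diamonds) lies above them.

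Photoreceptor precursor-gated barcodes carried little of the cascade. There were 237 in control and 761 in Mettl14-cKO, and the median of the 8 genes without Gnb1 was 5.33% and 5.99% of the rod level, above the medians of the 5 classes named before. In Mettl14-cKO, Pde6g stood at 5.89% (5.41% to 6.40%) of its rod level, against 3.85% (3.60% to 4.11%) in bipolar-gated barcodes. Of the 9 genes 8 had at least 30 UMIs, of which 0 were higher, 4 lower and 4 neither, against 6.5% of 8683 genes called higher and 7.52% called lower. Gngt1 stood at 332 CPM in control (220 UMIs) and at 132 in Mettl14-cKO (307 UMIs), a ratio of 0.397 (0.333 to 0.474). The others called lower were Sag (0.491), Pde6b (0.490) and Gnb1 (0.697), all of them also lower in rod-gated barcodes. The part of free RNA from rods in these levels was not tested.

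Cone-gated barcodes, 345 in control and 264 in Mettl14-cKO, were the exception among the other classes. Of these, 343 and 257 also reached the rod marker level that the rod gate asks for. They carried the 8 rod transcripts at 85.5% to 117% of the rod-gated level in control and at 83.2% to 138% in Mettl14-cKO. Gnat1 stood there at 126 and 239 CPM, Gngt1 at 6593 and 3708, Pde6b at 981 and 452, Pde6g at 4604 and 5062, and Sag at 6286 and 4364. These barcodes were deep, at medians of 9478 and 6984.5 UMIs against 1981.5 and 2047 in rod-gated ones. Scrublet, a doublet caller, marked 0.290% and 4.55% of them, and 3.67% and 8.67% of rod-gated barcodes. Split at 5000 UMIs, a limit chosen after the data were seen, the 279 and 178 deeper barcodes held Nrl, the rod-specifying factor, at 82.6% and 83.0% of the rod level. The 66 and 86 shallower barcodes held Nrl at 43.2% and 47.6%, Cnga1 at 48.8% and 52.3%, Cngb1 at 45.2% and 48.4% and Pde6b at 44.7% and 36.1%. In the same barcodes Gngt1 stood at 94.0% and 131%, Pde6g at 118% and 131%, and Sag at 76.7% and 121% of the rod level, so Sag was below rods in control and above them in Mettl14-cKO. Gnat1 stood at 35.4% and 70.7% on 9 and 36 UMIs. Gnat2, the cone transducin alpha subunit and a cone gate marker, stood at 801 and 847 CPM in the shallower barcodes against 275 and 325 in the deeper ones. The cone gate asks for 4 detected cone markers at any depth, so the direction of this difference is partly set by the gate. How far joint capture of cones and rods sets these values was not tested, and the cone-gated levels are not read as cone expression.

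Over all barcodes used, whatever their class, Gnat1 stood at 52.4 CPM in control and 73.9 in Mettl14-cKO (ratio 1.41), and the other 8 genes at 0.369 (Pde6b) to 0.774 (Pde6g) of control. Over all barcodes, fewer rods and less cascade RNA per rod cannot be told apart. Barcodes that met several classes held 23.8% to 26.9% of each gene's UMIs in control and 35.3% to 42.2% in Mettl14-cKO, and rod-gated barcodes 49.8% to 58.3% and 36.7% to 48.4%. Kept whatever other class they met, cones left out, barcodes at the rod level gave the same calls for Gnat1, Gnb1, Gngt1, Pde6b and Sag.

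Across the 8 classes with at least 50 barcodes in both libraries, 16 values per gene, the genes with the profile most like the mean of the members without Gnb1 were listed by Pearson's r of log2(CPM + 1), as a description over points that share libraries. Of the first 5, 2 were rod markers used in the gate. The others included Nxnl2 (r = 0.996), a thioredoxin-like gene of photoreceptors, and Rcvrn (0.993). Nxnl2 stood at 704 and 497 CPM in rod-gated barcodes and was called lower, while Rcvrn at 1708 and 1497 was not. Against the mean of the other members, r was 0.803 for Gnb1, 0.917 for Gnat1 and 0.977 to 0.996 for the remaining 7.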

How the data were processed

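Dissociated P7 mouse retina was profiled with the 10x Genomics 3' chemistry, 1 library per genotype. Each deposited matrix lists UMI counts by gene and barcode and was made by the authors with Cell Ranger 6.1.1 on mm10, per the submitters' processing notes; the values are whole numbers without normalization, and the lowest barcode total was 500 UMIs. Total depth was 55921787 UMIs (control) and 59856468 UMIs (Mettl14-cKO).

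Barcodes with at least 1000 UMIs were gated by 138 marker genes of 14 classes, none a member. Rods needed 50 rod marker UMIs per 10000; other classes needed 3 to 5 detected markers. Cones had precedence over rods, rods over photoreceptor precursors, and a few other classes likewise over one they overlap with; the remaining barcodes that met several classes were left out as possible doublets. UMIs were summed per class and scaled to 1000000 (CPM). Ratios needed 30 UMIs over both libraries and have exact conditional 95% intervals; levels have exact Poisson and shares exact Clopper-Pearson intervals. No test was possible across libraries. Named genes are the 9 members, the genes of the other rod cascade and cone lists with at least 100 UMIs in rod-gated barcodes, and the 5 of highest r by likeness. Some genes that this rule names are not reported here. Members, lists and markers were chosen with earlier results of these data known. Gene positions come from the GENCODE annotation of GRCm38, and promoters from RefSeq (GRCm38.p6). Alternatives changed the barcode filter, gate, scaling, thinning and free RNA handling. Scanpy 1.11.5 ran clustering and Scrublet, with leidenalg 0.10.2; numpy 2.4.6 and scipy 1.17.1 gave the sums and intervals. The comparison of UMI sums between libraries was tested on simulated Poisson sums with known fold changes. The gate, clustering and other steps were not tested in this way.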

Additional observations from a re-analysis of the deposited data

How the results depend on the processing

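The 9 rod-gated ratios were recomputed under 11 alternatives, 8 planned and 3 chosen after seeing the data (barcodes at the rod level whatever other class they met, barcodes shared by the libraries left out, and barcodes near the rod limit left out). Not all of them could move the ratios far. Leaving out shared barcodes dropped only 12 rod-gated barcodes from each library, and each change of scaling shifted all log2 ratios by the same small amount. A run without a minimum count leaves these genes as they are and is not counted, nor is the amacrine subtraction for Gnb1, which amacrine cells express. No direction reversed. Gnat1 stayed higher (log2 0.64 to 0.79) and Gnb1 (-0.80 to -0.64), Gngt1 (-1.25 to -1.13), Pde6b (-1.21 to -1.09) and Sag (-0.91 to -0.80) stayed lower in each of them, and Pde6g (-0.13 to -0.03) and Cngb1 (-0.18 to -0.05) were called in none. Between 4 and 6 members were lower and 1 was higher. Of all genes tested as reported, 2084 of 12273 were higher and 2169 lower. Under the stricter rod gate, with 4 members lower, these were 1953 and 2076 of 12011. Without barcodes near the rod limit, also with 4 members lower, they were 2012 and 2127 of 12158. With the median gene ratio set to 1 they were 2316 and 1919 of 12273, and after the amacrine subtraction 1185 and 2853 of 5996. The median log2 ratio of the members was -0.27 under a stricter rod gate and -0.41 when barcodes at the rod level were kept whatever other class they met; the cause was not tested. Setting the median gene ratio to 1 moved the share of higher among all called genes from 49.0% to 54.7%; subtracting the amacrine-gated level moved it to 29.3%, with a median of -0.39 over the 5996 genes left. No paired analysis was possible because each genotype has 1 library. Leaving out a replicate was likewise not possible. Depth limits Gnat1 and Pde6a most, at 1437 to 2528 UMIs per library in rod-gated barcodes and under 100 in the classes outside photoreceptors.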
